A study of Mus musculus with 2 samples.

Results

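The miR-15, miR-16, miR-195 and miR-497 hairpins were examined in small RNA libraries of mouse hippocampus. They were taken by gene symbol as Mir15a, Mir16-1, Mir15b, Mir16-2, Mir497 and Mir195a, the miR-195 hairpin beside Mir497, and make up 6 of the 2202 annotated microRNA genes in the tables. The study held 1 group of 2 libraries, numbered replicates 1 and 2, from hippocampal tissue (labelled a hippocampus layer) of adult male 5xFAD/CAST mice aged 8 to 10 months. 5xFAD is a transgenic line whose transgenes are driven by the neuronal Thy1 promoter and which serves as a model of amyloid deposition, and CAST is a wild-derived strain. The labels do not describe the breeding, and they give both tissues the same donor record, so it is not settled that they came from separate animals. No group lacking the transgene was analysed here, so the values describe levels and the spread between 2 libraries, which may be technical.

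The miR-15/16 family is defined by a common seed, the bases near the 5′ end through which a microRNA pairs with its target messages. Its members are expressed in many tissues and are known for restraining the cell cycle and survival through targets such as D- and E-type cyclins and Bcl2. Mir15a and Mir16-1 lie in the region that is often lost in human chronic lymphocytic leukaemia. MicroRNAs of a cluster are usually cut from 1 primary transcript, and each hairpin can release a mature strand from its 5′ arm and one from its 3′ arm.

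The mature 5′ strands are shown because they define the family and because they set which reads can be given to a hairpin. All 6 members matched the RefSeq sequence table (build GRCm38.p6, the same assembly as mm10), which held 12 mature arms for them, 21 or 22 bases long. The capitals mark the seed, bases 2 to 8 counted from the 5′ end.
miR-15a-5p: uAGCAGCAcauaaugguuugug
miR-15b-5p: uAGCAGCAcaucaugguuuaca
miR-16-5p: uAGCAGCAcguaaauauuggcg
miR-195a-5p: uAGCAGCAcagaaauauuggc
miR-497a-5p: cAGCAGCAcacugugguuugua
The 6 hairpins give 5 different 5′ strands, since miR-16-5p is the same in Mir16-1 and Mir16-2. All 5 are identical from base 2 to base 9. Of the 21 bases that can be compared, 19 are the same in miR-16-5p and miR-195a-5p, which differ by G10A and U11G. Between miR-15b-5p and miR-15a-5p 18 of 22 bases are the same, with the differences C12A, A20G, C21U and A22G. The most distant strands are miR-16-5p and miR-497a-5p, with 11 of 22 bases in common.

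The hairpins lie in 3 clusters, each with a hairpin named 15 or 497 first in the direction of transcription and one named 16 or 195 second. Mir15a (ENSMUSG00000093007.1; mm10 chr14:61632027-61632110, minus strand) and Mir16-1 (ENSMUSG00000092995.1; chr14:61631880-61631972, minus strand) are 54 bases apart in an intron of the noncoding RNA Dleu2 in 8 of its GENCODE M21 transcripts. Mir15b (ENSMUSG00000065580.2; chr3:69009772-69009835, plus strand) and Mir16-2 (ENSMUSG00000065606.1; chr3:69009902-69009996, plus strand) are 66 bases apart in an intron of 5 transcripts of Smc4, which encodes a condensin subunit. Mir497 (ENSMUSG00000105220.1; chr11:70234717-70234800, plus strand) and Mir195a (ENSMUSG00000065411.2; chr11:70235042-70235135, plus strand) are 241 bases apart and lie in no annotated gene other than microRNA genes. The whole of Mir497 lies opposite Mir497b, an annotated hairpin gene on the minus strand.

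All 6 hairpins were detected, which required 10 reads or more in each library, and all had more than 100. Replicate 1 held 3421977 assigned reads and replicate 2 held 2820468, where assigned means counted on the strand of a microRNA gene. Levels are given as CPM, counts scaled to a common total of assigned reads, and since the mature arms are of nearly the same length no length correction was made. Intervals are exact Clopper-Pearson 95% intervals and cover the counting error of reads only. The reads carry no molecular identifiers as far as the labels say. Copies of 1 molecule would then count as separate reads, so the intervals may be too narrow. Together the hairpins held 5983 reads in replicate 1, 0.175% of assigned reads (interval 0.170 to 0.179), and 9870 in replicate 2, 0.350% (0.343 to 0.357), or 2624 ± 1238 CPM (SD, n = 2). Their median level was 369 CPM, against 105 CPM over the 389 detected genes.

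The most abundant hairpin by the mean was Mir497, with 1177 reads (344 CPM) in replicate 1 and 3969 reads (1407 CPM) in replicate 2. Mir195a, its neighbour, had 2449 reads (716 CPM) and 2314 reads (820 CPM). Mir15a had 949 reads (277 CPM) and 2540 reads (901 CPM). These 3 hairpins lay above the others in both libraries. Mir16-1 had 449 reads (131 CPM) in replicate 1 and 474 (168 CPM) in replicate 2, and Mir15b had 380 (111 CPM) and 408 (145 CPM). Mir16-2 had 579 reads (169 CPM) in replicate 1 but 165 (58.5 CPM) in replicate 2, which took it from the fourth place among the 6 to the last.

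As means of 2 libraries the levels were 876 ± 752 CPM for Mir497, 768 ± 74.1 for Mir195a, 589 ± 441 for Mir15a, 150 ± 26.1 for Mir16-1, 128 ± 23.8 for Mir15b and 114 ± 78.3 for Mir16-2. The ranges of Mir497, Mir195a and Mir15a overlapped, as did those of Mir16-1, Mir15b and Mir16-2, and Mir15a was above Mir16-1 in both libraries. Within a library, counting intervals of neighbours in the order overlapped only for Mir16-1 and Mir15b. None of the 6 held the same place in the order in both libraries: Mir195a led replicate 1 and Mir497 led replicate 2. Among the 389 detected genes Mir497 had rank 137 in replicate 1 and 75 in replicate 2, Mir15a 145 and 98, Mir195a 105 and 101, and Mir16-2 166 and 229. By mean level, Mir497 stood between Mir346 (890 CPM) and Mir540 (856 CPM), Mir195a between Mir129-2 (793 CPM) and Mir28a (759 CPM), both of which share 20 bases with another gene, and Mir15a between Mir668 (593 CPM) and Mir673 (584 CPM). Mir16-1 stood between Mir488 (150.2 CPM) and Mir873a (148 CPM), Mir15b between Mir500 (129 CPM) and Mir10a (126 CPM), and Mir16-2 between Mir377 (114 CPM) and Mir200c (112 CPM).

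**Figure D1:**
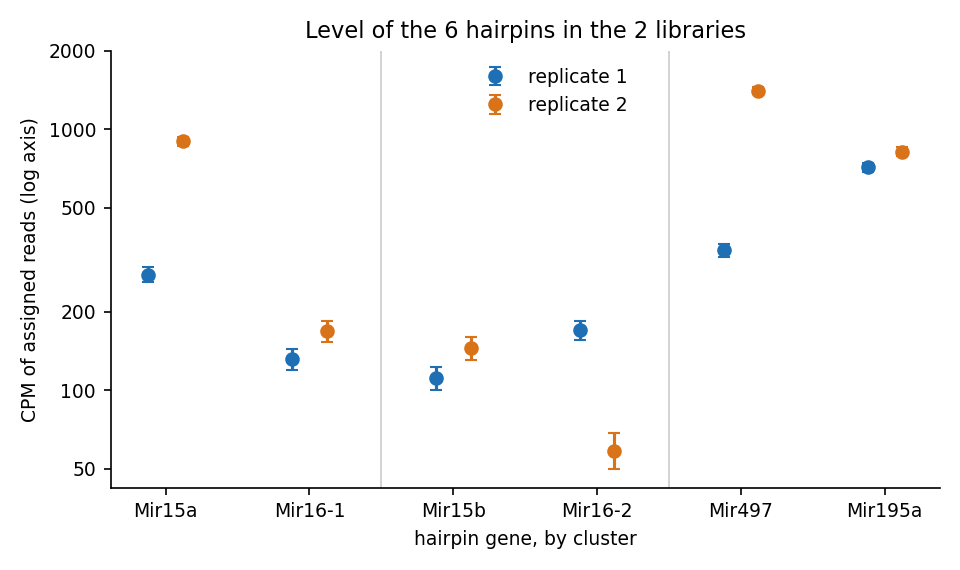
Level of each hairpin in CPM (log axis) by cluster, with replicate 1 in blue and replicate 2 in orange; points are single libraries and bars exact 95% counting intervals. Mir15a and Mir497 were well above their replicate 1 level in replicate 2, Mir16-2 was below it, and the other 3 lay close together. Levels of Mir16-1 and Mir16-2 may leave out reads that fit both.

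In the main setting all 6 hairpins differed between libraries beyond counting error, as did 86.7% of genes with 100 reads or more in both. With another scaling, given below, 3 of the 6 did. The difference was over 3-fold at Mir497, Mir15a and Mir16-2 and less at the others. The comparison used the log2 ratio of replicate 2 over replicate 1 on TMM-scaled counts (scaled by the trimmed mean of gene-wise ratios) and a two-sided exact binomial test, with Benjamini-Hochberg adjustment over the 389 detected genes. It asks whether 2 libraries differ, not whether conditions do. Mir497 was 3.82-fold higher in replicate 2 (log2 ratio 1.94, 95% interval 1.84 to 2.03). Mir15a was 3.04-fold higher (1.60, 1.49 to 1.71; adjusted p = 3.7e-211). Mir16-2 was 3.09-fold lower (-1.63, -1.89 to -1.38; adjusted p = 1.57e-43). Of the detected genes, 21 had a ratio at least as far from 0 as that of Mir497, itself included, 26 as far as Mir16-2 and 30 as far as Mir15a.

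The other 3 hairpins were closer to equal. The log2 ratio was 0.28 (interval 0.079 to 0.49) for Mir15b, 0.26 (0.070 to 0.45) for Mir16-1 and 0.10 (0.017 to 0.18) for Mir195a, with adjusted p of 0.0097, 0.011 and 0.026 in the exact binomial test. Thus 5 hairpins were called higher and 1 lower in replicate 2. Among detected genes 67.6% were called, 33.9% higher and 33.7% lower. Among the 241 genes with 100 reads or more in each library, as all 6 hairpins had, 86.7% were called, 43.6% higher and 43.2% lower, so a call was the usual outcome at this depth. With DESeq2 size factors in place of TMM, 2 hairpins were called higher and 1 lower, since Mir15b, Mir16-1 and Mir195a no longer passed, while 69.2% of detected genes were called, 30.6% higher and 38.6% lower. The median log2 ratio of the 6 was 0.27, against 0.055 over all detected genes. The median size of the ratio, without its sign, was 0.94 against 0.52, but no hairpin lay near 0.94. By this size Mir497, Mir16-2 and Mir15a were at 1.60 or more. Mir15b, Mir16-1 and Mir195a were at 0.28 or less, at places 279, 286 and 352 of the detected genes. The gene with the log2 ratio nearest to that of Mir497, among the 241 that reached 100 reads in each library, was Mir377, with 2.04; with 2 libraries this likeness rests on 1 ratio per gene.

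When the spread of the 2 libraries themselves was taken as the error, no hairpin passed. In the edgeR exact test with a common biological coefficient of variation of 0.41, the adjusted p of the 6 ranged from 0.54 to 1, and 1 hairpin, Mir497, had an unadjusted p under 0.05 (0.029). In that test 0.514% of detected genes passed, and 23 had an unadjusted p under 0.05. Its error comes from the same libraries and includes the difference under test.

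**Figure D2:**
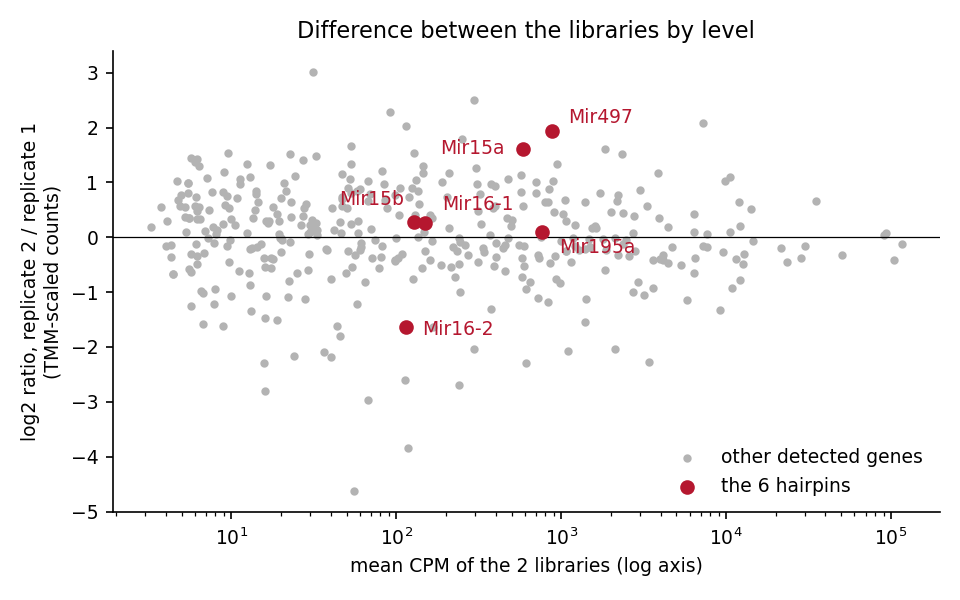
Log2 ratio of replicate 2 over replicate 1 (TMM-scaled counts) against the mean level in CPM (log axis) for the 389 detected genes, with the 6 hairpins in red and other genes in grey. Mir497 (1.94) and Mir15a (1.60) lie in the upper part of the cloud and Mir16-2 (-1.63) in the lower part. The ratios of Mir16-1 and Mir16-2 are uncertain, since reads that fit both may be left out.

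Within each cluster the balance of the 2 hairpins moved the same way between the libraries. Mir15a took 67.9% of the reads of its cluster in replicate 1 (interval 65.4 to 70.3) and 84.3% in replicate 2 (82.9 to 85.6). Mir15b took 39.6% (36.5 to 42.8) and 71.2% (67.3 to 74.9). Mir497 took 32.5% (30.9 to 34.0) and 63.2% (62.0 to 64.4). In all 3 clusters the first hairpin had the larger share in replicate 2, and the intervals of the libraries did not overlap. Of the 106 pairs of detected neighbours on 1 strand within 10 kb, 65.1% had intervals that did not overlap, and in 29.2% this came with a larger first share in replicate 2. Of the 70 pairs in which both hairpins had 100 reads or more in each library, as in the 3 clusters, the shares were 85.7% and 37.1%. In the Mir15b and Mir497 clusters the order turned over, so that the second hairpin led in replicate 1 and the first in replicate 2. These shares compare hairpins of the same library and so need no scaling between libraries. In the Mir15a and Mir15b clusters they count only reads given to Mir16-1 or Mir16-2, which may leave out reads of the 5′ strand common to both, so these shares and the ratios made from them are uncertain.

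The ratio of first to second hairpin was 2.11 in replicate 1 and 5.36 in replicate 2 for Mir15a over Mir16-1, 0.656 and 2.47 for Mir15b over Mir16-2, and 0.481 and 1.72 for Mir497 over Mir195a. On the log2 scale these are changes of 1.34, 1.91 and 1.84. Among the 106 pairs, the 3 clusters included, the median size of the change was 0.71, and among the 70 pairs it was 0.79. By the size of the change the 3 clusters stood at places 25, 8 and 10 of the 106. The share of the first hairpin was higher in replicate 2 in 49 of the pairs and lower in 57. A shift within a pair was therefore common in these libraries, and the change in each of the 3 clusters was above both medians.

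**Figure D3:**
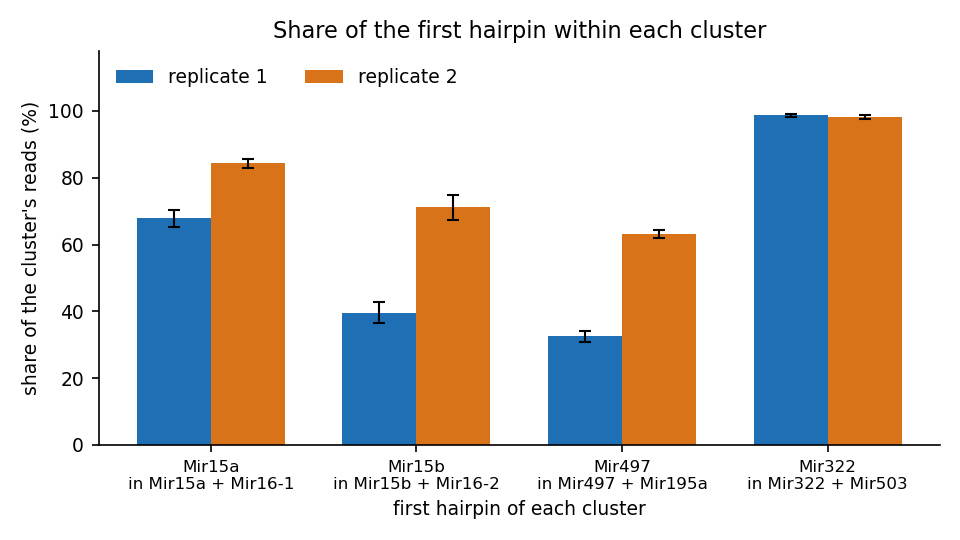
Share of the first hairpin in the reads of its cluster (%) for the 3 clusters and for Mir322 with Mir503, in replicate 1 (blue) and replicate 2 (orange); bars are single libraries with exact 95% intervals. The share was larger in replicate 2 in the 3 clusters of the 6 hairpins, while that of Mir322 was 98.7% and 98.3%, with overlapping intervals. Mir503 had only 37 and 24 reads, so the share of Mir322 had little room to rise.

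**Figure D4:**
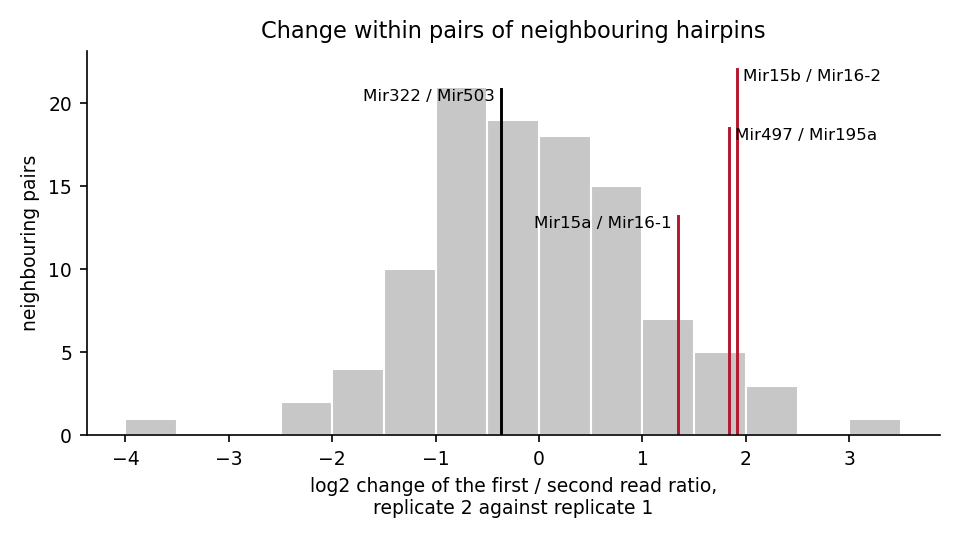
Histogram of the log2 change in the read ratio of first to second hairpin, replicate 2 against replicate 1, over 106 neighbouring pairs, with red lines for the 3 clusters and a black line for Mir322 and Mir503. The clusters lie on the right at 1.34, 1.84 and 1.91, and the pair of Mir322 and Mir503 at -0.37.

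Grouped by place in the cluster, a grouping made after the values were seen, the 3 first hairpins together had 2506 reads (732 CPM) in replicate 1 and 6917 (2452 CPM) in replicate 2. The 3 second hairpins had 3477 reads (1016 CPM) and 2953 (1047 CPM). The log2 ratio was 1.65 (interval 1.58 to 1.71) for the first and -0.054 (-0.13 to 0.017) for the second. The sum of the second hairpins may leave out reads that fit both Mir16 genes, so its ratio is uncertain. The sums follow the hairpins with the most reads and do not describe each member, since Mir15b among the first had a log2 ratio of 0.28 and Mir16-2 among the second one of -1.63. By cluster, the sums were 409 and 1069 CPM for Mir15a with Mir16-1, 1060 and 2228 CPM for Mir497 with Mir195a, and 280 and 203 CPM for Mir15b with Mir16-2. The first 2 of these sums were higher in replicate 2 and the last was lower. Those with Mir16-1 or Mir16-2 may also leave out reads that fit both genes.

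The levels of Mir16-1 and Mir16-2 are uncertain, since their hairpins share the mature 5′ strand. Both hairpins are shown, with the longest stretch they have in common, 23 bases, in capitals.
Mir16-1: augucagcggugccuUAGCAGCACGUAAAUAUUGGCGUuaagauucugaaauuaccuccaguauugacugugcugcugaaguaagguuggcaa
Mir16-2: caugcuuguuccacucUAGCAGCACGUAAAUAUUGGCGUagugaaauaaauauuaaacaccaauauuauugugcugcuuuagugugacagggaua
The stretch holds all 22 bases of miR-16-5p and the base after it. A read of exactly that strand fits both genes. Reads with several possible places have a row of their own in the tables, outside any gene, and made up 41.6% of all reads in replicate 1 and 38.2% in replicate 2. The 2 tables give no count of miR-16-5p among them. The 1028 and 639 reads given to the 2 Mir16 hairpins (300.4 and 227 CPM) are therefore no measure of the abundance of miR-16-5p, and their place below Mir15a does not show that the tissue held less miR-16 than miR-15a.

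The 3′ strands differ between the copies. They are shown with bases 2 to 8 in capitals.
miR-16-1-3p: cCAGUAUUgacugugcugcuga
miR-16-2-3p: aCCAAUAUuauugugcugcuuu
Each of these occurs in only 1 annotated hairpin, as do both arms of Mir15a, Mir15b, Mir497 and Mir195a. Counts are per hairpin, so how many of the reads at Mir16-1 or Mir16-2 came from the 3′ strand was not measured. Mir16-1 and Mir16-2 were the only pair of the 6 that shared 20 bases with another microRNA gene at another place, a property of 1087 of the 2202 genes.

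The count of Mir497 depended on strand. In the column that counts reads without regard to strand, Mir497 had 0 reads in both libraries, while the other 5 hairpins had the same counts as on their own strand. Its overlap with Mir497b covers all 84 bases of the hairpin. Mir497b had 0 reads on its own strand in both libraries, which allows up to 0.877 CPM in replicate 1 and 1.06 CPM in replicate 2 (3 reads). No read was counted opposite to any of the 6 hairpins. The annotated mature sequence of Mir497b lies within the stretch opposite Mir497, and its seed is not that of the family.
miR-497b: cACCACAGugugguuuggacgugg

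Among related hairpins outside the 3 clusters, Mir107 had more reads than any of the 6 in both libraries and Mir322 in replicate 1. A list of 14 symbols was set for hairpins with the same seed, with the seed shifted by 1 base, or lying opposite or beside such a hairpin, of which 11 were in the tables. Of these 4 were detected, 3 of them called lower and none higher in replicate 2, against 67.6% called and 33.7% called lower over all detected genes. Mir322, the mouse counterpart of human miR-424, carries the same seed and lies on the X chromosome beside Mir503. It had 2739 reads (800.4 CPM) in replicate 1 and 1377 (488 CPM) in replicate 2, with a log2 ratio of -0.81 (interval -0.91 to -0.72). In replicate 1 Mir322 exceeded all 6 hairpins, and in replicate 2 it lay below Mir497, Mir15a and Mir195a. Mir503, whose seed differs from that of the family, had 37 and 24 reads and was not called (log2 ratio -0.44, interval -1.25 to 0.34).
miR-322-5p: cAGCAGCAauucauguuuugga
miR-503-5p: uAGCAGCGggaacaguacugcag

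In miR-103 and miR-107 the 7 seed letters of the family stand 1 base earlier, at the first base of the strand, which is shown with bases 2 to 8 in capitals.
miR-107-3p: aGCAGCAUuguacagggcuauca
Mir107 had 2773 CPM in replicate 1 and 2350 CPM in replicate 2, more than any of the 6 hairpins in either library. It shares 20 bases with the Mir103 genes and is uncertain, as are Mir103-2 (95 and 48 reads) and Mir103-1 (9 and 8 reads), whose 3′ strand is the same in both genes. The other 6 genes of the list, Mir195b, Mir497b, Mir1907, Mir6342, Mir6353 and Mir6419, had no read on their own strand in either library. Of the 11 mature arms in the RefSeq table with the seed of miR-16-5p, 6 belong to the 6 hairpins and 1 to Mir322, and the other 4 belong to genes without a read on their own strand. Over all genes with this seed the reads given to a gene came to 2549 CPM in replicate 1 and 3988 CPM in replicate 2. Of this Mir322 made up 800.4 and 488 CPM. Reads of miR-16-5p that fit both Mir16 genes may be missing from it, so it is no measure of the abundance of the family.

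The GC content of the hairpins also differed. It was 61.9% in Mir497, 54.3% in Mir195a, 45.2% in Mir15a, 44.1% in Mir16-1, 40.6% in Mir15b and 36.8% in Mir16-2, against a median of 52.1% over detected genes. The hairpin with the highest ratio had the highest GC content and the one with the lowest ratio the lowest, and in each cluster the first hairpin was richer in GC than the second. Between these the orders differed, as Mir195a, at 54.3%, had a log2 ratio of 0.10 and Mir15a, at 45.2%, one of 1.60. After a linear correction for hairpin GC content over the detected genes, the log2 ratio was 1.71 for Mir497, 1.76 for Mir15a and -1.28 for Mir16-2. It was 0.55 for Mir15b and 0.44 for Mir16-1, against 0.28 and 0.26 without the correction. The log2 changes within the clusters were then 1.32, 1.83 and 1.66, for the Mir15a, Mir15b and Mir497 clusters. With this correction Mir195a was no longer called (log2 ratio 0.050). Whether GC content had a part in the ratios was not tested.

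**Figure D5:**
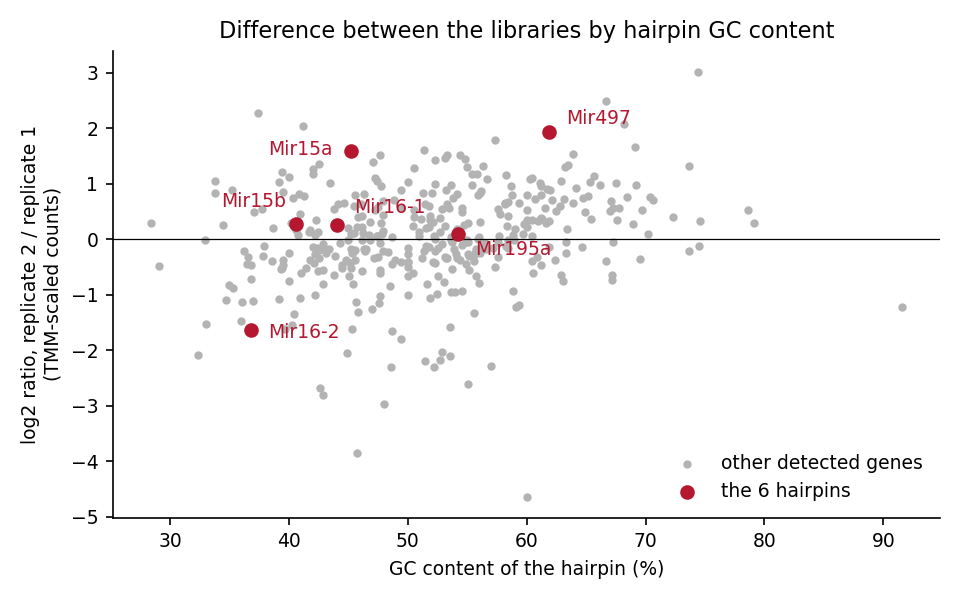
Log2 ratio of replicate 2 over replicate 1 (TMM-scaled counts) against the GC content of the hairpin (%) for the detected genes, with the 6 hairpins in red. Mir16-2, at 36.8% GC, has the lowest ratio of the 6 and Mir497, at 61.9%, the highest. Between them, Mir195a at 54.3% has 0.10 and Mir15a at 45.2% has 1.60.

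The tissue label was set against microRNAs of brain and of other cell types, and the libraries differed in some of these. The neuron list held 29610 CPM in replicate 1 and 29728 CPM in replicate 2, with 4 of 7 genes detected. Of these, Mir138-1 and Mir137 were higher in replicate 2 (log2 ratios 0.57 and 0.093) and Mir132 and Mir128-1 lower (-0.31 and -0.16). Mir124a-2 and Mir124a-3 were at 0 and Mir124a-1 had 5 reads in each, all 3 being copies of 1 microRNA. Reads that fit several copies may be left out, so these counts are no measure of the abundance of that microRNA. The oligodendrocyte list held 5027 and 6661 CPM (2 of 2 detected), with Mir338 higher in replicate 2 (log2 ratio 0.87) and Mir219a-2 lower (-0.26), and the endothelial gene Mir126a 7871 and 7464 CPM. Red blood cells and leukocytes are known to be rich in miR-16. The red blood cell list held 47.6 and 59.9 CPM (3 of 3 detected). In it Mir451a was higher in replicate 2 (log2 ratio 0.53), while Mir144 (-0.12) and Mir486 (-0.048) were not called. The leukocyte and microglia list held 4075 and 3464 CPM (5 of 5 in the tables, of 6 listed). The mural list, Mir143 and Mir145a, held 13800 and 5693 CPM, and the epithelial and sensory list 712 and 111 CPM (6 of 8 detected). The liver and muscle list held 50.8 and 50.3 CPM (2 of 4 detected), with Mir133b and Mir1a-1 at 0. Unmapped reads were 16.6% of all reads in replicate 1 and 22.6% in replicate 2. The part of these differences in the ratios of the 6 hairpins was not tested, and in such tissue fewer cells of a type and less RNA per cell cannot be told apart.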

How the data were processed

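MicroRNA-seq was measured in 2 libraries of 1 group. The deposited tables hold raw counts for each microRNA gene in 3 columns by strand, made on mm10 with GENCODE M21 per the deposited text notes; the aligner, counter and trimming were not found in the labels or notes. Counts on the gene's own strand were used. Rows that name no gene held 64.8% and 67.0% of reads and were left out of library sizes. Detection required 10 reads or more in each library. TMM factors, the common dispersion (intercept-only design) and the exact test came from edgeR 4.0.16 and size factors from DESeq2 1.42.0 (R 4.3.3); binomial tests and intervals came from scipy 1.17.1 (Python 3.11.15). A quasi-likelihood test needs groups to contrast, and there was 1. The threshold was an adjusted p of 0.05. The tests were checked on simulated counts with less spread between libraries than was estimated here. That check does not show how they behave on these libraries. Hairpins were compared for stretches of 20 bases in the M21 transcripts; no genome sequence was used here. The 6 hairpins, the related list and the marker lists were chosen with earlier results of these data known. Named genes are the 6 hairpins, detected genes of the related list, the neighbours of each hairpin in mean level, and the gene nearest in ratio to the most abundant hairpin and to the one furthest from 0, which was Mir497 in both cases. Alternatives were other scalings, minimum counts, the column without strand, a GC correction, other denominators and single libraries.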

Additional observations from a re-analysis of the deposited data

Results flagged for a closer look

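The column for the opposite strand entered no comparison, and it held reads at Mir497b. They numbered 1177 in replicate 1 and 3969 in replicate 2, above the 3 reads that a count of 0 allows. These are the same numbers as the reads on the strand of Mir497, which lies opposite. The reads of Mir497 did enter the comparisons.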

How the results depend on the processing

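Over the 35 alternative values of the 6 log2 ratios none changed sign, and 31 kept their side of the threshold. The 4 that did not were Mir15b, Mir16-1 and Mir195a with DESeq2 size factors (log2 ratios 0.19, 0.17 and 0.0057; adjusted p 0.096, 0.12 and 0.92 in the exact binomial test) and Mir195a after the GC correction (0.050, adjusted p = 0.30). With DESeq2 size factors 3 hairpins were called in place of 6, and 2 in place of 5 were higher in replicate 2, beside 69.2% of detected genes called, 30.6% higher and 38.6% lower. The ratios of Mir497, Mir15a and Mir16-2 ranged from 1.71 to 2.03, from 1.51 to 1.76 and from -1.72 to -1.28 over the alternatives that gave a value. Without regard to strand Mir497 had no reads, so its share of the cluster was 0% in both libraries and it had no ratio; the row of ambiguous reads held 234489 and 176310 reads in that column and 0 on the gene's strand. Scaled to all reads in place of assigned reads, the summed level was 885 CPM in place of 2624. Each library alone gave 1748 and 3499 CPM. No hairpin passed the edgeR exact test under library totals, a minimum of 1 read or tagwise dispersion, where 2, 1 and 0 of the tested genes passed and 22, 28 and 16 had an unadjusted p under 0.05. Shares of single libraries carry counting error only, and a mean of 2 libraries has 1 degree of freedom.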
